A study of Homo sapiens with 24 samples.

Results

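The genes described here encode 10 surface proteins through which a tumour cell restrains or alerts T cells, natural killer (NK) cells and macrophages. They were picked out by gene symbol from 61251 genes in the deposited table. The list was proposed with earlier results of these data known. It holds the PD-1 ligands CD274 and PDCD1LG2, the B7 family protein CD276, the nectin-like ligands PVR and NECTIN2 and the macrophage signal CD47. The NKG2D ligands MICA, MICB and ULBP2 and the ectoenzyme NT5E complete it. Each symbol matched 1 gene. Their messenger RNA was read from 24 RNA sequencing libraries of KYSE450, a long-established cell line from a human squamous carcinoma of the oesophagus.

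The libraries formed 4 groups of 6: the parental line, a chemoresistant line (KYSE450DDP in the titles), and drug tolerant persister (DTP) cells derived from either. Persister cells are those that survive a drug exposure without a lasting resistance mutation. All 4 groups carried the genotype label WT, grew in RPMI-1640 with 10% FBS and were labelled as not treated, and no agent, dose or exposure time of the resistant or persister cells was named. Whether the chemoresistant line was 1 clone, and whether libraries that share a group stem from separate cultures, was not stated either. P-values therefore reflect only how far these samples spread, and that spread may be technical.

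PD-1 ligands engage PD-1 on T cells and dampen T cell activation, and CD276 (B7-H3) is a related protein found on many carcinomas. PVR and NECTIN2 bind both the activating receptor DNAM-1 and the inhibitory receptor TIGIT on NK and T cells, MICA, MICB and ULBP2 are stress-induced ligands of the activating receptor NKG2D, and CD47 binds SIRPA on macrophages and restrains phagocytosis. NT5E (CD73) converts extracellular AMP to adenosine, which suppresses lymphocytes.

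Library totals ran from 14947379 to 37989456 reads. All 8 squamous epithelial markers examined, KRT5, KRT14, KRT6A, TP63, SOX2, DSG3, CDH1 and EPCAM, reached 1 FPKM in every group. Of 13 leukocyte markers, none reached 1 FPKM except LYZ in chemoresistant DTP cells, and CD3E was at 0 in every library. Of 7 fibroblast markers, 4 (COL1A1, COL1A2, COL3A1 and LUM) reached 1 FPKM in the chemoresistant group and 1 (COL1A1) in the others, with a summed level of 4.43 to 19.3 FPKM in chemoresistant libraries and 2.8 to 7.54 FPKM in parental ones. Their part in the results was not tested. Of 16 receptors for these ligands on immune cells, SIRPA alone reached 1 FPKM.

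Promoter sequence is shown for CD274, MICA and MICB, whose regulators by interferon and by stress are best known. The motif matches of CD274 can be set beside the expression of the interferon regulators below. Among the stress regulators only ATF4 is given by name, and none for the heat shock element. RefSeq (GRCh38.p14) promoters matched all 10 symbols except PDCD1LG2, and the 250 bases before each start were searched on both strands. The letters printed are the part of that window that holds no exon of GENCODE release 29, 5′ to 3′ on the strand of the gene, with motif matches in capitals. For MICA and MICB it lies within the annotated gene, since longer transcripts start upstream. The CD274 window (chr9:5450292-5450502, plus strand) held 2 overlapping matches to the interferon regulatory factor element (GAAA, any 2 bases, GAAA), whose first bases lie at -208 and -202 from the start and which read on the other strand. It also held a match to the STAT element TTCNNNGAA and a GC box, GGGCGG.
CD274: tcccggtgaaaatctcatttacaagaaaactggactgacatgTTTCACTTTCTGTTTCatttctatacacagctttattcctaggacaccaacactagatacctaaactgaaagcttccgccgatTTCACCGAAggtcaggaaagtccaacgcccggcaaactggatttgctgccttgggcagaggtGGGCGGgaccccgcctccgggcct
The MICA window (chr6:31403345-31403578, plus strand) and the MICB window (chr6:31497895-31498085, plus strand) each held the heat shock element GAATTTTC followed by a GC box on the other strand, CCGCCC.
MICA: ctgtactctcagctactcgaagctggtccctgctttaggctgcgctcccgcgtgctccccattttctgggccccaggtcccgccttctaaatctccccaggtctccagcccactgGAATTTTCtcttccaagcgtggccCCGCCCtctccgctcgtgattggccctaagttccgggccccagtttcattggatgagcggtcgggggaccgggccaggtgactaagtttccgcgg
MICB: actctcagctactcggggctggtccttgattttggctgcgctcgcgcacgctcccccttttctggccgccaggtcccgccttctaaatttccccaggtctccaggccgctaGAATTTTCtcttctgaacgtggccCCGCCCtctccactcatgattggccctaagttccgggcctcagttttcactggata
The full 250 bases before the MICA and MICB starts, exon bases included, were identical at 209 of 246 aligned bases (85%). Among all 35116 promoters, the interferon regulatory factor element was present in 3.02%, the STAT element in 6.57%, the heat shock element (GAANNTTC or TTCNNGAA) in 11.58% and the GC box in 42.64%. A match describes letters and does not show a bound site.

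**Figure D1:**
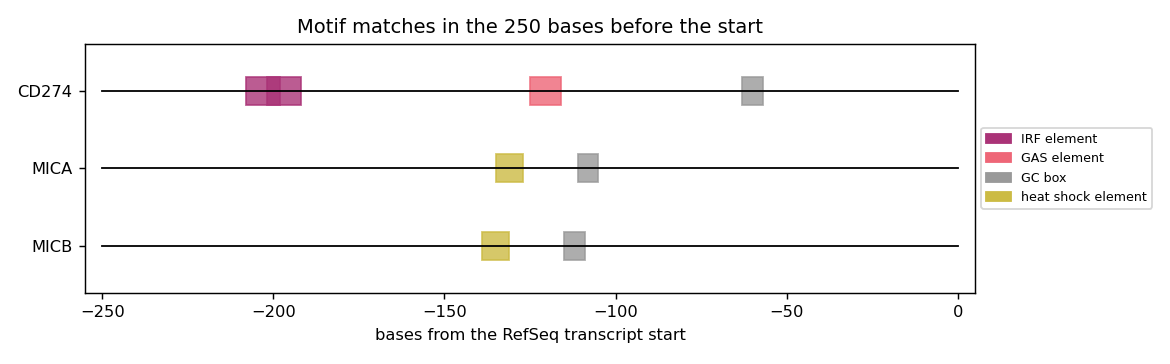
Positions of motif matches (coloured blocks) in the 250 bases before the RefSeq transcript start of CD274, MICA and MICB; the x axis is the distance in bases from the start. CD274 carries interferon elements at -208 and -202, a STAT element at -125 and a GC box at -63. MICA and MICB carry a heat shock element and a GC box at nearly the same distances as each other.

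CD274 (PD-L1; ENSG00000120217, chr9:5450503-5470566) had the highest level in the chemoresistant line, at a low level throughout. FPKM relates the reads of a gene to its length and to the depth of the library, so levels of different genes can be compared. Parental libraries held 0.0916, 0.152 and 0.211 FPKM (lowest, median and highest), and parental DTP libraries 0.0296, 0.132 and 0.216. Chemoresistant libraries held 0.525, 0.627 and 0.711 FPKM and chemoresistant DTP libraries 0.145, 0.236 and 0.335. All 6 chemoresistant libraries thus lay above the libraries of both the parental and the chemoresistant DTP group, and the 2 parental groups overlapped. Between 3 and 77 reads per library lay behind these values, so counting error was large at these levels.

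CD274 missed the filter of the main test, a mean of at least 1 FPKM in a group, and was tested by exact permutation of the mean FPKM (two-sided, 924 splits, smallest possible p 0.00216, adjusted over the 8 comparisons of CD274 and PDCD1LG2). The chemoresistant mean, 0.616 ± 0.0782 FPKM (SD, n = 6), was 4.1 times the parental mean of 0.15 ± 0.0397 (exact p = 0.00216, adjusted 0.00866). In chemoresistant DTP cells CD274 was 0.392 times the chemoresistant mean (exact p = 0.00216, adjusted 0.00866). Parental DTP and parental cells did not differ beyond their spread (ratio 0.848, exact p = 0.47). Chemoresistant DTP cells were above parental DTP cells, 1.89 times (exact p = 0.0152, adjusted 0.0404), with overlapping libraries. A fit without the filter gave the same 3 calls, and of these the last was lost without parental DTP replicate 2 (log2 fold change 0.11, adjusted p = 0.0541).

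PDCD1LG2 (PD-L2; ENSG00000197646, chr9:5510570-5571254), the neighbour of CD274, was close to absent. Group means ran from 0.0148 to 0.0309 FPKM with 0 to 4 reads per library, and every pair of groups overlapped. None of its 4 comparisons passed (exact permutation p from 0.242 to 0.983), and differences of this size were not detectable at this depth. PLGRKT, the gene that precedes CD274 on chromosome 9, averaged 6.23 ± 0.731 FPKM in parental cells, 13.2 ± 1.07 in chemoresistant cells and 12.9 ± 0.911 in their DTP cells. Past PDCD1LG2, RIC1 went the other way, from 8.02 ± 0.5 FPKM in parental to 5.76 ± 0.399 in chemoresistant cells. Between these groups ERMP1 went from 15.1 ± 0.913 to 17.4 ± 0.932 FPKM and KIAA2026 from 3.82 ± 0.479 to 3.86 ± 0.505. A rise was thus not shared by all neighbours (values given without a test).

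A list of the interferon and NF-kB route, known as inducers of CD274, was read beside it. Of 17 listed genes 16 were tested, and in chemoresistant against parental cells 14 rose and 0 fell (12 and 1 with relative log expression scaling), where 48.2% of all tested genes were higher and 29.4% lower. Their median change was 0.66, against 0.14 for all tested genes. IRF1, which acts at the CD274 promoter, went from 0.617 ± 0.0475 to 3.59 ± 0.0958 FPKM, which is 1.51 ± 0.04 (SE) on the log2(FPKM + 1) scale (adjusted p = 2.99e-20). STAT2, a factor of the type I interferon response, rose by 2.54 ± 0.07.

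In chemoresistant DTP against chemoresistant cells 3 of the 16 rose and 9 fell (20.5% and 27.4% of all tested genes), with STAT2 at -1.35 ± 0.07 and IRF1 at -0.66 ± 0.04. In parental DTP cells, where CD274 did not pass, 14 rose and 1 fell, or 11 and 1 with relative log expression scaling (45.8% and 19.7% of all tested genes without it). The AP-1 subunit JUN rose there by 1.75 ± 0.07. For 15 of the 16 the DTP change was lower in the chemoresistant than in the parental line. For 0 it was higher, against 43.4% lower and 20.5% higher among all tested genes. With relative log expression scaling it was lower for 12 and higher for 0, against 4496 and 4272 of 13675 genes. Other checkpoint genes were mostly below the filter, with 2 of 12 tested. LGALS9 (galectin-9) averaged 0.284 ± 0.0457 FPKM in parental, 6.3 ± 0.574 in chemoresistant and 0.933 ± 0.143 in chemoresistant DTP cells, and it passed the filter through its chemoresistant level alone. Fitted without the filter, its last step was a fall of 1.92 on the log2 scale (adjusted p = 2.06e-17). VSIR (VISTA) was higher in both chemoresistant groups than in their parental counterparts (0.37 ± 0.06 and 0.70 ± 0.06).

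**Figure D2:**
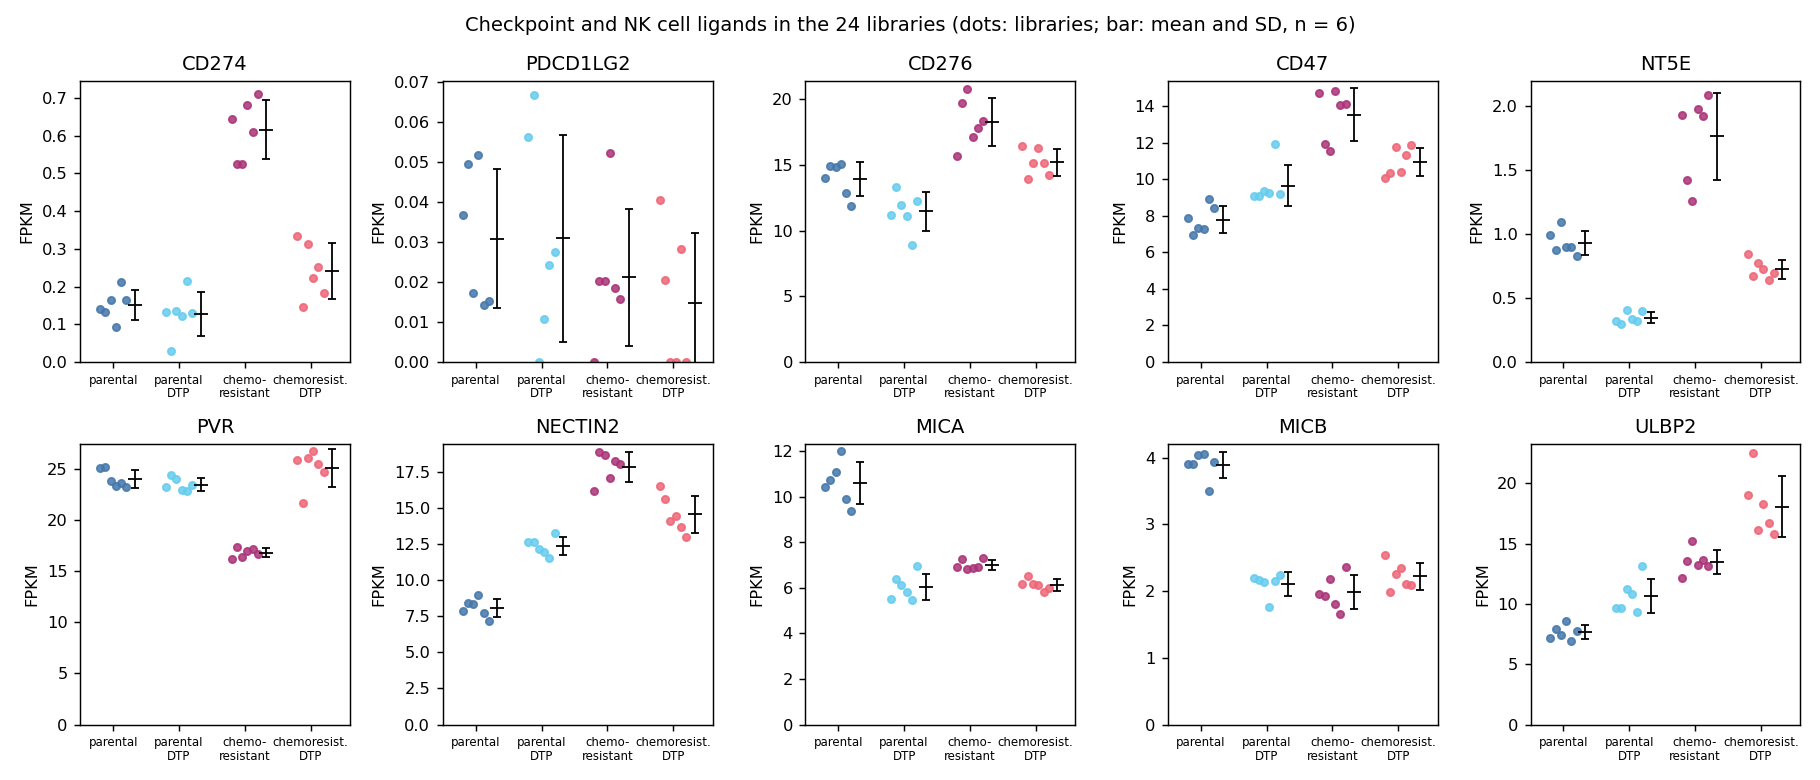
FPKM of the 10 genes in each of the 24 libraries (dots) with the group mean and SD (n = 6); the y axis of each panel starts at 0 and has its own scale. CD274 stands out in the chemoresistant group, PVR is lowest there, and MICA and MICB are highest in the parental group.

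The other 8 genes passed the filter and were tested with limma on log2(FPKM + 1) over 13729 genes, with a Benjamini-Hochberg threshold of 0.05. Fold changes below are on that scale, with the standard error of the fit. The median gene moved by 0.14 in both parental DTP and chemoresistant cells against parental cells, and relative log expression scaling took both medians to 0.

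CD276 (ENSG00000103855, chr15:73683966-73714518) was abundant in all groups. Parental libraries held 11.9, 14.4 and 15.1 FPKM (lowest, median, highest) and parental DTP libraries 8.93, 11.6 and 13.4, with overlap. Chemoresistant libraries held 15.7, 18.1 and 20.8 FPKM, above every parental library, and chemoresistant DTP libraries 13.9, 15.1 and 16.4. The DTP change was -0.26 ± 0.08 in the parental line (adjusted p = 0.00445) and -0.25 ± 0.08 in the chemoresistant line (adjusted p = 0.0103). The 2 changes differed by 0.02, with an interval of 2 SE from -0.20 to 0.23 (adjusted p = 0.906). Between the lines CD276 was higher in chemoresistant cells by 0.37 ± 0.08 and in their DTP cells by 0.38 ± 0.08. With relative log expression scaling the first of these became 0.20 and missed the threshold (adjusted p = 0.0532), and the parental DTP change became -0.44.

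PVR (CD155; ENSG00000073008, chr19:44643798-44663583) and NECTIN2 (CD112; ENSG00000130202, chr19:44846175-44889228) lie near each other on chromosome 19, bind the same receptors, and moved in opposite directions in 2 of the 4 group comparisons. PVR was highest of the 10 genes in parental cells. Parental libraries held 23.2, 23.7 and 25.2 FPKM (lowest, median, highest), parental DTP libraries 22.8, 23.3 and 24.4, and chemoresistant DTP libraries 21.6, 25.6 and 26.8. Chemoresistant libraries held 16.2, 16.8 and 17.3 FPKM, below every library of the other 3 groups. PVR was thus lower in chemoresistant than in parental cells (-0.49 ± 0.04, adjusted p = 7.31e-11) and rose in chemoresistant DTP cells (0.55 ± 0.04, adjusted p = 7.88e-11).

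The parental DTP value of PVR was -0.03 ± 0.04 (adjusted p = 0.48), but -0.21 with relative log expression scaling (adjusted p = 9.41e-05), so its call there depends on the scaling. The DTP groups of the 2 lines differed by 0.09 ± 0.04 (adjusted p = 0.0566), or 0.12 with that scaling and 0.13 with upper-quartile scaling, where it passed (adjusted p = 0.0179 and 0.0262). It passed as well without parental DTP replicate 2 (0.10, adjusted p = 0.0458) and without chemoresistant DTP replicate 2 (0.13, adjusted p = 0.000568).

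NECTIN2 held 7.16, 8.11 and 8.94 FPKM in parental libraries, 11.5, 12.4 and 13.2 in parental DTP, 16.2, 18.1 and 18.8 in chemoresistant, and 13.0, 14.3 and 16.5 in chemoresistant DTP libraries. Both the parental DTP and the chemoresistant libraries lay wholly above the parental ones. NECTIN2 rose by 0.56 ± 0.05 in parental DTP cells (adjusted p = 4.11e-09) and was 1.05 ± 0.05 higher in chemoresistant than in parental cells (adjusted p = 9.81e-15), a ratio of means of 2.21. In chemoresistant DTP cells it fell by 0.28 (SE 0.05, adjusted p = 0.000179), with overlap.

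The DTP change differed between the lines for both genes, in opposite directions: by 0.58 ± 0.06 for PVR (adjusted p = 4.5e-09) and by -0.84 ± 0.08 for NECTIN2 (adjusted p = 1.54e-09). Within each library the NECTIN2 to PVR ratio was 0.309 to 0.384 in parental, 0.503 to 0.567 in parental DTP, 1.0 to 1.14 in chemoresistant and 0.525 to 0.721 in chemoresistant DTP cells. The chemoresistant group was the one where the level of NECTIN2 reached that of PVR. Among the other nectins, NECTIN4 was 2.14 ± 0.05 higher in chemoresistant than in parental cells (0.138 ± 0.0423 to 4.03 ± 0.294 FPKM). It passed the filter through the chemoresistant groups alone, so the difference is given without a p-value.

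**Figure D3:**
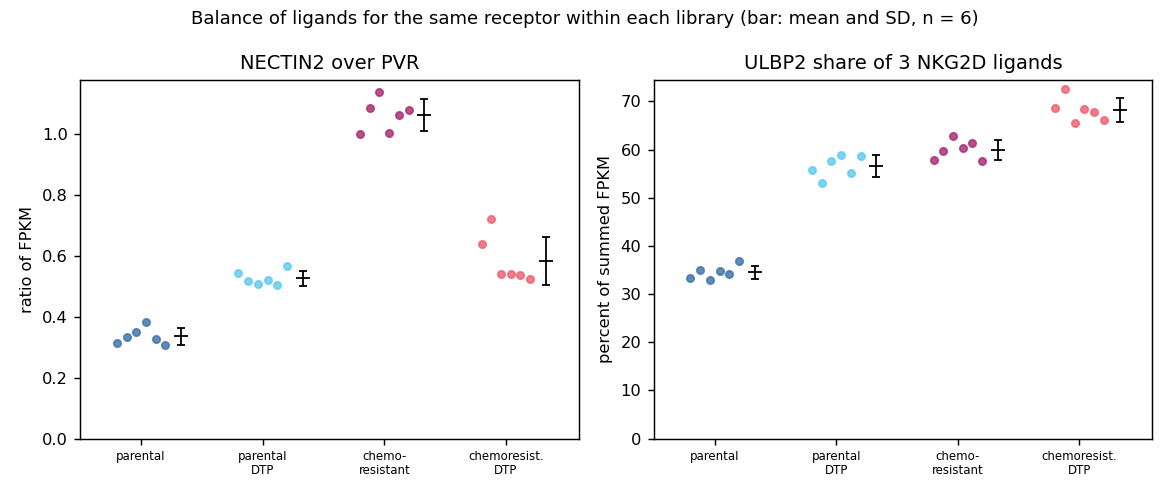
Left, the NECTIN2 to PVR ratio of FPKM in each library; right, ULBP2 as a percentage of the summed FPKM of MICA, MICB and ULBP2; dots are libraries and bars the mean and SD (n = 6). The ratio peaks in the chemoresistant group at 1.0 to 1.14, and the ULBP2 share is lowest in the parental group at 32.9 to 36.8%.

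CD47 (ENSG00000196776, chr3:108043094-108091862, minus strand) held 6.96, 7.6 and 8.91 FPKM in parental libraries (lowest, median, highest) and 9.08, 9.21 and 11.9 in parental DTP libraries, without overlap. Chemoresistant libraries held 11.5, 14.1 and 14.8 FPKM, above every parental library, and chemoresistant DTP libraries 10.1, 10.9 and 11.9. It was higher in chemoresistant than in parental cells by 0.72 ± 0.07 (adjusted p = 2.06e-09) and fell by 0.28 (SE 0.07) in chemoresistant DTP cells (adjusted p = 0.00244), with overlap. In parental DTP cells the difference was 0.27 ± 0.07 (adjusted p = 0.00181), or 0.11 with relative log expression scaling, where the call was lost (adjusted p = 0.102). The DTP change differed between the lines by -0.55 ± 0.10 (adjusted p = 4.5e-05; -0.36 with that scaling). The DTP groups differed by 0.17 ± 0.07 (adjusted p = 0.043), a call lost without the filter (adjusted p = 0.0865) and with upper-quartile scaling (0.0523). It was also lost when any 1 of parental DTP replicates 1, 2, 3, 4 and 6 or of chemoresistant DTP replicates 3, 5 and 6 was left out (log2 fold change 0.15 to 0.16, adjusted p from 0.0717 to 0.0918).

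Of 7 other genes that signal to phagocytes 6 were tested, and in chemoresistant against parental cells 3 rose and 3 fell (48.2% and 29.4% of all tested genes). CD24, another restraint on macrophages, averaged 3.97 ± 0.185 FPKM in parental, 1.89 ± 0.162 in parental DTP, 8.43 ± 0.469 in chemoresistant and 11.1 ± 1.11 in chemoresistant DTP cells. CD24 thus fell in parental DTP cells (-0.78 ± 0.05, adjusted p = 5.25e-12) and rose in chemoresistant DTP cells (0.36 ± 0.05, adjusted p = 5.34e-06), the reverse of the signs of CD47. THBS1 (thrombospondin-1, a secreted ligand of CD47) went from 28.5 ± 5.24 FPKM in parental to 8.73 ± 0.413 in chemoresistant cells (-1.58 ± 0.11). SIRPA, the receptor of CD47, was itself measured at 2.48 to 4.48 FPKM by group and fell in both DTP comparisons (-0.66 ± 0.06 and -0.32 ± 0.06).

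MICA (ENSG00000204520, chr6:31399784-31415315) and MICB (ENSG00000204516, chr6:31494881-31511124), neighbours in the major histocompatibility region, were highest in parental cells. Parental libraries held 9.39, 10.6 and 12.0 FPKM of MICA (lowest, median, highest), against 5.46, 5.97 and 6.97 in parental DTP, 6.82, 6.91 and 7.31 in chemoresistant and 5.8, 6.15 and 6.54 in chemoresistant DTP libraries. For MICB the parental values were 3.51, 3.91 and 4.05 FPKM, against 1.76, 2.15 and 2.25 in parental DTP, 1.66, 1.94 and 2.36 in chemoresistant and 1.98, 2.18 and 2.55 in chemoresistant DTP libraries. Every parental library lay above every other library for both genes.

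MICA fell by 0.72 in parental DTP cells (SE 0.05, adjusted p = 1.74e-11) and was lower in chemoresistant than in parental cells (-0.53 ± 0.05, adjusted p = 1.63e-09). MICB showed -0.65 ± 0.06 (adjusted p = 2.88e-10) and -0.72 ± 0.06 (adjusted p = 1.96e-11) in the same comparisons. In chemoresistant DTP against chemoresistant cells MICA was at -0.17 ± 0.05 (adjusted p = 0.00947), a call lost with relative log expression scaling (-0.15, adjusted p = 0.0618) and with a correction for GC content (-0.09, adjusted p = 0.0871). MICB was at 0.11 ± 0.06 there (adjusted p = 0.094), and passed with the GC correction (0.14, adjusted p = 0.0358), without chemoresistant replicate 6 (0.15, adjusted p = 0.0277) and without chemoresistant DTP replicate 2 (0.14, adjusted p = 0.0452). Between the DTP groups the differences were 0.02 (interval of 2 SE from -0.08 to 0.13) for MICA and 0.05 (from -0.06 to 0.16) for MICB. The DTP change differed between the lines by 0.55 ± 0.07 for MICA (adjusted p = 5.33e-07) and by 0.77 ± 0.08 for MICB (adjusted p = 7.31e-09).

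HLA-B and HLA-C, the classical class I genes next to MICA, had other profiles. HLA-B averaged 6.81 ± 0.813 FPKM in parental, 7.29 ± 2.13 in parental DTP, 86.9 ± 5.66 in chemoresistant and 39.2 ± 8.23 in chemoresistant DTP cells. HLA-C averaged 25.9 ± 1.47, 28.6 ± 4.66, 175.2 ± 14.5 and 83.7 ± 8.03 FPKM in the same order. The class I genes were thus highest in chemoresistant cells, where MICA and MICB were below their parental level (values given without a test).

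ULBP2 (ENSG00000131015, chr6:149942000-149949235), the NKG2D ligand of another cluster on chromosome 6, moved against MICA and MICB in parental DTP and chemoresistant cells. Libraries held 6.96, 7.59 and 8.59 FPKM in parental cells (lowest, median, highest), 9.32, 10.3 and 13.1 in parental DTP, 12.1, 13.4 and 15.2 in chemoresistant and 15.8, 17.5 and 22.5 in chemoresistant DTP cells. None of the 4 comparisons had overlapping libraries. ULBP2 rose by 0.42 ± 0.08 in parental DTP cells (adjusted p = 5.25e-05; 0.26 with relative log expression scaling) and by 0.39 ± 0.08 in chemoresistant DTP cells (adjusted p = 0.000255). The 2 DTP changes differed by -0.04 (interval of 2 SE from -0.26 to 0.19, adjusted p = 0.798). Between the lines ULBP2 was higher in chemoresistant cells by 0.75 ± 0.08 (adjusted p = 6.72e-09) and in their DTP cells by 0.71 ± 0.08 (adjusted p = 3.34e-08).

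Of the 50-base pieces of ULBP2 transcripts, 32.2% also occur in other genes, 29.4% in RAET1L and 11.6% in RAET1G, and how reads shared by genes were counted was not given. The split of reads between ULBP2 and RAET1L is therefore uncertain. RAET1L (ULBP6) itself averaged 4.17 ± 0.427 FPKM in parental, 20.9 ± 1.14 in parental DTP, 20.7 ± 1.27 in chemoresistant and 45.3 ± 8.28 in chemoresistant DTP cells. It rose by 2.09 ± 0.08 and 1.07 ± 0.08 in the DTP cells of the parental and chemoresistant line. MICA and MICB shared 1.89% and 1.61% of their pieces with each other.

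The remaining NKG2D ligands split between both patterns. ULBP1 went from 0.177 ± 0.0869 FPKM in parental cells to 4.69 ± 0.673 in parental DTP and 7.81 ± 1.02 in chemoresistant cells (2.27 ± 0.08 and 2.90 ± 0.08), and was at 6.87 ± 0.676 FPKM in chemoresistant DTP cells. ULBP3 was highest in parental cells, with group means of 3.23, 2.17, 1.84 and 2.09 FPKM in the order parental, parental DTP, chemoresistant and chemoresistant DTP. ULBP2 made up 32.9 to 36.8% of the summed FPKM of MICA, MICB and ULBP2 in parental libraries, 53.1 to 58.9% in parental DTP, 57.7 to 62.8% in chemoresistant and 65.6 to 72.5% in chemoresistant DTP libraries. Their sum moved less, with group means of 22.1, 18.8, 22.5 and 26.4 FPKM in the same order.

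**Figure D4:**
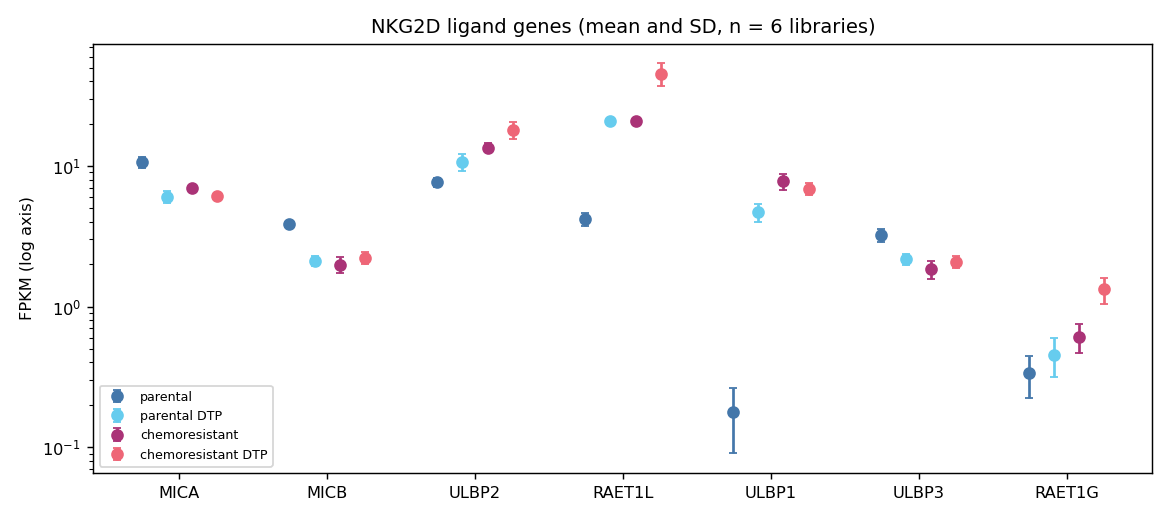
Mean FPKM (log axis) and SD of the NKG2D ligand genes in the 4 groups (n = 6 libraries each). MICA, MICB and ULBP3 are highest in parental cells, while ULBP2, RAET1L and ULBP1 are lowest there.

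Of 17 other NK cell ligands 12 were tested, and 9 rose and 3 fell in chemoresistant against parental cells (48.2% and 29.4% of all tested genes). The split was 8 and 3 with relative log expression scaling and 7 and 3 with the GC correction. CLEC2B, a ligand of an activating NK receptor, rose there by 1.78 ± 0.09. NECTIN4 counts among the 9, although it passed the filter through the chemoresistant groups alone. Proteases that shed MICA, MICB and ULBP2 from the surface were also measured: ADAM17 went from 3.41 ± 0.25 FPKM in parental to 5.53 ± 0.254 in parental DTP and 5.96 ± 0.427 in chemoresistant cells (0.57 ± 0.06 and 0.66 ± 0.06), and MMP14 from 3.25 ± 0.234 to 5.95 ± 0.748 and 7.18 ± 0.438 FPKM (0.70 ± 0.06 and 0.95 ± 0.06). In the list of 11 genes that handle the ligands at the surface, 10 were tested, and 5 rose and 0 fell in parental DTP cells, or 4 and 3 with relative log expression scaling (45.8% and 19.7% of all tested genes without it), a share of rises near the background. In chemoresistant against parental cells 4 of the 10 rose and 4 fell, or 3 and 6 with that scaling. Of all tested genes 48.2% were higher and 29.4% lower there without it. CMTM4, which stabilises PD-L1, was lower in chemoresistant than in parental cells (-0.68 ± 0.09).

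Regulators linked to stress-induced NKG2D ligands were all tested (10 of 10), and 7 rose and 3 fell in chemoresistant against parental cells, or 5 and 3 with relative log expression scaling (48.2% and 29.4% of all tested genes without it). ATF4, a mediator of the integrated stress response, averaged 126 ± 7.01 FPKM in parental, 188 ± 5.92 in parental DTP and 221 ± 6.68 in chemoresistant cells (0.57 ± 0.05 and 0.80 ± 0.05). The MICA and MICB windows held no match to the ATF4 composite element TGATGNAA.

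NT5E (ENSG00000135318, chr6:85449584-85495791) fell in the DTP cells of both lines and was higher in the chemoresistant line. Parental libraries held 0.83, 0.895 and 1.09 FPKM (lowest, median, highest), parental DTP libraries 0.295, 0.329 and 0.405, chemoresistant libraries 1.25, 1.93 and 2.08, and chemoresistant DTP libraries 0.636, 0.711 and 0.846. No comparison had overlapping libraries. NT5E passed the filter through its chemoresistant level alone, so the p-values given for it are from the fit without the filter. The DTP mean was 0.372 times the parental mean (-0.52 ± 0.06, adjusted p = 5.36e-07) and 0.41 times the chemoresistant mean (-0.67 ± 0.06, adjusted p = 2.4e-08). Chemoresistant cells had 1.9 times the parental level (0.51 ± 0.06, adjusted p = 3.27e-07) and their DTP cells 2.09 times the parental DTP level (0.36 ± 0.06, adjusted p = 8.78e-05). The added pseudocount of 1 compresses these changes: with 0.1 the DTP values were -1.21 and -1.16. The DTP changes of the lines differed by -0.15 (interval of 2 SE from -0.33 to 0.02, adjusted p = 0.233). In the fit with the filter the difference passed without chemoresistant replicate 3 (-0.21, adjusted p = 0.0183) and did not pass with all libraries (adjusted p = 0.137). With the pseudocount of 0.1 that difference was 0.05 and did not pass.

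Of 16 adenosine pathway genes beside NT5E 5 were tested. In chemoresistant against parental cells 2 rose and 3 fell (48.2% and 29.4% of all tested genes). ENTPD1 (CD39), which forms the AMP that NT5E uses, stayed below the filter at 0.116 to 0.16 FPKM by group. ADORA2B, an adenosine receptor, was at 19.5 to 26.6 FPKM by group and lower in chemoresistant than in parental cells (-0.35 ± 0.06). SLC29A1, which carries adenosine into cells, averaged 39.5 ± 3.27 FPKM in parental, 17.9 ± 1.13 in parental DTP and 11.3 ± 0.705 in chemoresistant cells (-1.10 ± 0.05 and -1.72 ± 0.05). ADA, which degrades adenosine, was 1.19 ± 0.06 higher in chemoresistant than in parental cells.

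Across the 8 tested genes, 3 rose and 4 fell in parental DTP against parental cells, where 65.5% of all tested genes passed, 45.8% higher and 19.7% lower. With relative log expression scaling the split was 2 and 5, against 4422 and 4438 of all genes. In chemoresistant DTP against chemoresistant cells 2 rose and 5 fell (background 48%, with 20.5% higher and 27.4% lower). All 8 passed in chemoresistant against parental cells, 5 higher and 3 lower (background 77.5%, with 48.2% higher and 29.4% lower), and all 8 had no overlap there (background 61.8%). Between the DTP groups 5 rose and 0 fell (background 61.9%, with 29.5% higher and 32.3% lower). The DTP change differed between the lines for 5 of 8 (background 63.8%). Without NT5E, the higher and lower counts of the other 7 were 3 and 3, 2 and 4, 4 and 3, and 4 and 0 in the 4 group comparisons.

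The members' counts lay above the background share in the first 3 of these comparisons and near it in the other two, and with 8 genes nothing particular to the ligands was read from them. The median change of the 8 was -0.15, -0.21, 0.44 and 0.19 in the 4 group comparisons, against 0.14, -0.02, 0.14 and -0.02 for all tested genes. Libraries did not overlap for 6, 4 and 3 of the 8 in the parental DTP, the chemoresistant DTP and the DTP against DTP comparison (background 45.8%, 27.8% and 36.2%). The comparisons share groups and are not independent of each other. As bulk RNA was measured, fewer cells with a transcript and less of it per cell cannot be told apart.

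**Figure D5:**
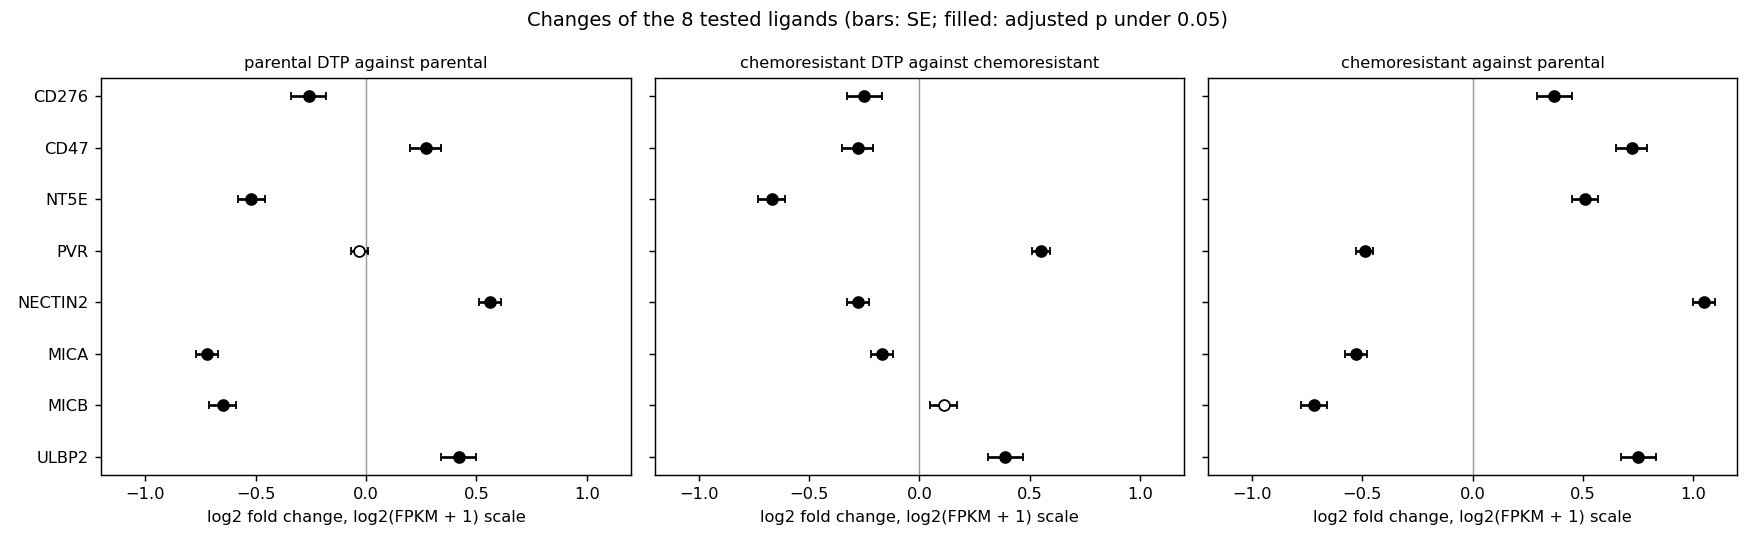
Log2 fold change on the log2(FPKM + 1) scale with its SE for the 8 tested genes in 3 comparisons; filled points passed an adjusted p of 0.05. CD47 and NECTIN2 are above 0 in parental DTP and below 0 in chemoresistant DTP cells, PVR is open in the first panel and at 0.55 in the middle one, and ULBP2 is above 0 in all 3 panels.

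For the 3 tested genes whose group means spanned at least 1 on the log2 scale, the genes with the most similar profile over the 24 libraries were sought by the root mean square difference of centred log2(FPKM + 1) values. NECTIN2 was closest to SEZ6L2, SPIRE2 and REEP6 (0.0736, 0.0818 and 0.0878). Near ULBP2 were KCNK1 and REEP4 (0.0866 and 0.104). NT5E was closest to CA12, a carbonic anhydrase, CNN2 and CNP (0.143, 0.159 and 0.16).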

How the data were processed

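Gene expression was measured by RNA sequencing in 24 libraries, 6 in each of 4 groups taken from the sample labels. Per the submitters' processing notes the genome build was GRCh38. The aligner, counting tool, annotation release and strandedness were not given in the sources used here. A column of FPKM per library, so named per the file headers, was deposited by the authors for 61251 genes, and 23 lines without values were dropped. Values of all 41101 genes above 0 were whole multiples of 1 read (tolerance 0.02 reads, or 5e-08 of the value), and from these reads library totals and read numbers were taken. A count of 0 allows up to 3 reads, counting error only.

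The 13729 genes that reached a group mean of 1 FPKM were tested with limma 3.58.1 in R 4.3.3, with a mean-variance trend, on log2(FPKM + 1). The 4 group means were fitted to all libraries, p-values were two-sided and adjusted by Benjamini-Hochberg over all tested genes, and the threshold was 0.05. This scale understates changes of low genes. CD274 and PDCD1LG2 missed the filter and were tested by exact permutation and in a fit without the filter.

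The rule for the members names symbols only, but the members and the gene lists were proposed with earlier results of these data known. All 10 members were named, with up to 4 tested genes per list by the largest change past the threshold, the neighbours in the genome, and the 3 most similar profiles. Of these, 3 genes are not reported here. Markers of other cell types come from the marker lists. ENTPD1 was named outside this rule, after its values were seen. Coordinates are from GENCODE release 29 (GRCh38) and promoters from RefSeq (GRCh38.p14). Alternatives were the pseudocount, the filter, the scaling, the libraries fitted, a replicate block, a GC content correction (genes in 20 bins, 95.92% of tested genes with a value), a read-based fit and leaving out libraries.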

Additional observations from a re-analysis of the deposited data

Results flagged for a closer look

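In 3 of the 40 sets of 6 libraries examined (10 genes in 4 groups), 1 library stood far from the other 5 by Dixon's criterion, which chance alone meets in about 1 of 20 sets. Parental DTP replicate 5 had 11.9342 FPKM of CD47, above the rest of its group. MICB was low in parental replicate 5, at 3.50682 FPKM, and in parental DTP replicate 4, at 1.75926 FPKM. These libraries were kept.

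For 6 genes the DTP change differed between the lines in a test of the difference itself. As the chemoresistant minus the parental change, on the log2(FPKM + 1) scale, the values were -0.35 for CD274 (fitted without the filter), 0.58 for PVR, -0.84 for NECTIN2, -0.55 for CD47, 0.55 for MICA and 0.77 for MICB. CD47 and NECTIN2 rose in parental DTP cells and fell in chemoresistant DTP cells, although the rise of CD47 was lost with relative log expression scaling.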

How the results depend on the processing

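The number of the 8 tested genes past the threshold, 7, 7, 8 and 5 in the 4 group comparisons and 5 for the difference of DTP changes, stayed within 1.5 times of these values. When each library was left out in turn it ran from 7 to 7, 7 to 8, 8 to 8, 4 to 6 and 5 to 6, and over the 10 other alternatives from 5 to 7, 6 to 7, 6 to 8, 4 to 6 and 4 to 6. The stricter filter of a mean of 5 FPKM left MICB and NT5E untested. Over 50 results of single genes, 1633 alternative values kept their side of the threshold, 15 lost the call and 11 gained it. Among the 1633, direction changed only where neither the main nor the alternative value passed. The only reversal that involved a call was PDCD1LG2 in parental DTP cells, -0.18 with the GC content correction. The gene had 0 to 4 reads per library, and no parental library held more than 0.0516 FPKM. A fall of 0.18 exceeds that whole level on the log2(FPKM + 1) scale, so it was not read as a change of the gene. That correction also brought CD274 to -0.19 in parental DTP cells and CD276 to a difference of DTP changes of 0.18, past the threshold (adjusted p = 0.00184 and 0.0498). The parental mean of CD274 was 0.15 FPKM, so a fall of 0.19 is nearly its whole level on that scale. For CD274 the value was likewise not read as a change of the gene. Across genes, the deviation of a library from its group varied with GC content (Spearman rho -0.64 to 0.655 by library).

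Leaving out parental DTP replicates 5 and 6, whose deviations followed GC content most steeply within their group, left the counts at 7, 7, 8, 5 and 5. A fit of recovered reads (limma's voom, chosen after seeing the data) gave the same counts and larger changes for low genes, such as 2.02 for CD274 in chemoresistant against parental cells. The plan named edgeR only for a table of raw counts. Neither edgeR nor DESeq2 was run, because the table holds FPKM. The call of CD47 between the DTP groups was lost in 8 of 24 fits that left out 1 library.

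Correlations between the deviations of same-numbered libraries ran from -0.385 to 0.403, with medians from -0.0675 to 0.0974 by comparison. The labels do not say whether the numbers pair samples. As the deviations also varied with GC content, these correlations cannot exclude pairing. With the replicate block the counts were 7, 7, 8, 5 and 5. For CD274 and PDCD1LG2, read numbers limit what can be seen.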
